A study of Nasonia vitripennis with 140 samples.

Results

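Abdomens were compared with thoraces of adult control males of the jewel wasp Nasonia vitripennis, a parasitoid whose males are haploid and develop from unfertilised eggs. The comparison holds 10 of the 140 libraries of the series, 5 of abdomens and 5 of thoraces, taken by their labels as male, injected with GFP dsRNA and dissected as abdomen or thorax. Wasps of the laboratory strain AsymCX were reared on Calliphora pupae at 25 °C under a long-day light cycle. They were injected at the posterior end, as pupae 8 days after oviposition, with dsRNA against GFP at 4 µg/µl. GFP is a jellyfish protein with no counterpart in the wasp, so all 10 control libraries come from wasps that received an injection of dsRNA. The other groups used here are abdomens and thoraces of GFP-injected females and of males injected with dsRNA against doublesex (Dsx), the transcription factor at the end of the insect sex-determination cascade, with 5 libraries each. Adults were frozen 1 day after emergence and cut into head, thorax and abdomen on ice. The labels mention 7 adults for adult body parts but do not say whether each library came from its own wasps, so p-values measure the spread between these libraries, which may be technical.

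The insect thorax is filled by the flight and leg muscles and holds thoracic ganglia, and its power output rests on mitochondria packed between the muscle fibres. The abdomen holds midgut and hindgut, Malpighian tubules, most of the fat body and the reproductive organs. Fat body and oenocytes, cells lying against the cuticle, make haemolymph proteins and cuticular hydrocarbons, and Nasonia males make their sex pheromone in the rectal vesicle.

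Abdomens had between 69232953 and 94359632 counts per library and thoraces between 66619799 and 74686040. The first principal component carried 91.7% of the variance and separated the body parts. The second carried 3.07% and set thorax 1 apart at one end from thoraces 3 and 5 at the other. The opsin Lop1, a light receptor of the eye, read 0 to 0.0846 CPM (counts scaled for library size) in abdomens and 0 to 1.73 CPM in thoraces, against 4029 to 6735 CPM in male heads. Of 120 genes described here, 73 overlap another gene's span in the RefSeq annotation, and the sources used here do not give how reads in such overlaps were counted, so their values are uncertain to that extent.

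Among tested genes of the lists used here, most respiratory, muscle and nervous-system genes were lower in abdomens than in thoraces. Most tested cytochrome P450, glutathione transferase and serine protease genes were higher. Of 11697 genes tested, 8722 (74.6%) differed at an adjusted p below 0.05 in edgeR's quasi-likelihood test, 4549 (38.9%) higher and 4173 (35.7%) lower in abdomens. The change was at least 2-fold for 2298 (19.6%) that were higher and for 2411 (20.6%) that were lower. It was at least 16-fold for 619 (5.29%) higher and 266 (2.27%) lower. The libraries of both body parts did not overlap for 7307 genes (62.5%), and the median log2 change of abdomen over thorax was 0.04 (0.19 when libraries were scaled by total counts alone). In bulk tissue, fewer cells of a type and less RNA per cell cannot be told apart.

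**Figure D1:**
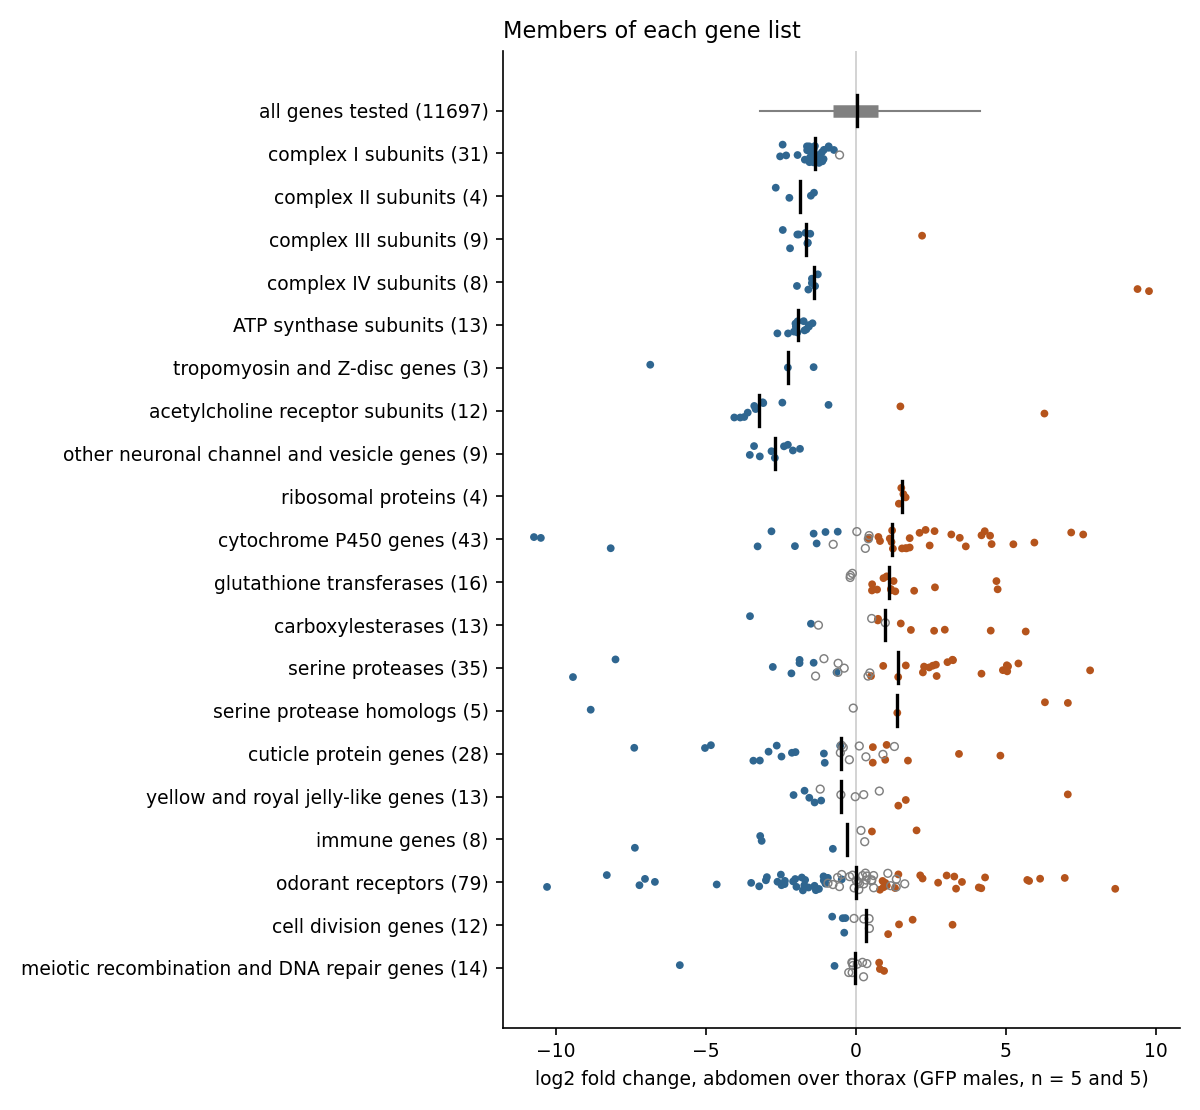
Log2 change of abdomen over thorax in GFP males (horizontal axis) for each member of the gene lists that passed the filter on low counts, 1 row per list, with the median of each list marked, filled points for called genes and open points for the rest; for all genes the thick bar spans the quartiles and the thin line the 5th to the 95th percentile. The medians of the respiratory chain, muscle and nervous-system lists shown lie left of 0 and those of the P450, transferase, esterase and protease lists right of it, with single members on the other side in several lists, while the median over all 11697 genes tested is 0.04.

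Most nuclear-encoded subunits of the mitochondrial respiratory chain were lower in abdomens, in each of the complexes. Complex I, which feeds electrons from NADH into the chain, had 30 of 31 members lower and 0 higher, with a median log2 change of -1.35, against 35.7% lower among all genes. Complex II had 4 of 4 lower (median -1.85), complex III 8 of 9 (median -1.67), complex IV, cytochrome c oxidase, 6 of 8 (median -1.41), and ATP synthase, which makes ATP from the proton gradient, 13 of 13 (median -1.93). The iron-sulphur subunit Ndufs1 of complex I had 159.9, 169.8, 152.3, 154.7 and 156.4 CPM in abdomens, against 776.4, 1115, 887.6, 919.4 and 648.4 CPM in thoraces, a log2 change of -2.43 (SE 0.140, adjusted p = 2.58e-08). All abdomens lay in a narrow band far under the lowest thorax. SdhB, the iron-sulphur subunit of succinate dehydrogenase, read 113.7 to 134.1 CPM in abdomens and 550.7 to 1069 CPM in thoraces, a log2 change of -2.67 (SE 0.177). Cytochrome c1 (Cyc1) read 268.9 to 305.4 CPM in abdomens and 499.5 to 1442 CPM in thoraces, a log2 change of -1.59 (SE 0.258). Both genes kept the body parts apart, with the thoraces spread far more widely than the abdomens.

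The ATP synthase beta subunit Atp5b, which carries the catalytic sites, had 978.5, 920.4, 875.3, 904.7 and 995.1 CPM in abdomens, against 1515, 4973, 2956, 3701 and 1624 CPM in thoraces. Its log2 change was -1.64 (SE 0.303, adjusted p = 0.000433). The gap came in unequal steps, because thoraces 2, 3 and 4 lay well above thoraces 1 and 5. The summed ATP synthase subunits had the same shape, at 4973, 4778, 4516, 4561 and 5313 CPM in abdomens and 7964, 26720, 16480, 19820 and 8164 CPM in thoraces. Summed complex I subunits read 3578, 3580, 3336, 3198 and 3381 CPM in abdomens and 7169, 13620, 10410, 11020 and 6583 CPM in thoraces. Thoraces 1 and 5 were lowest in both sums but still above all abdomens. What separates the thoraces was not tested.

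**Figure D2:**
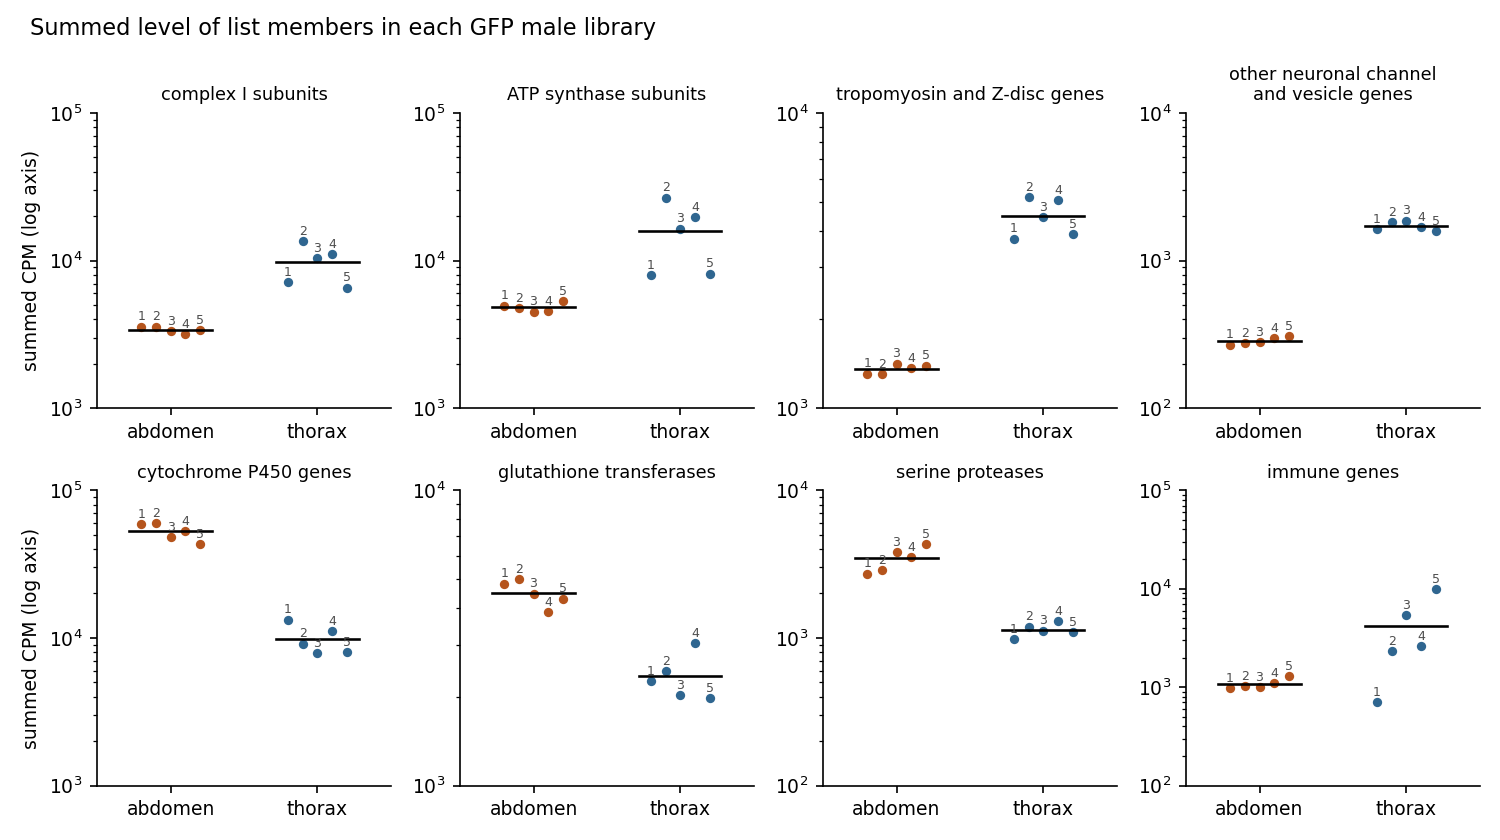
Summed CPM of gene lists in each library, abdomens left of thoraces in every panel, with 1 numbered point per library on a log axis and a line at the mean. Complex I and ATP synthase sums are lower in all abdomens than in any thorax, and thoraces 1 and 5 lie nearest to the abdomens.

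A few respiratory genes went the other way. Cox6c and Cox7a1, listed under names of cytochrome c oxidase subunits, were read almost only in abdomens. Cox6c had 1.31, 0.324, 0.708, 1.44 and 2.36 CPM in abdomens and no count in any thorax, which makes it at least 125-fold higher in abdomens against a floor of 3 counts over the 5 thoraces. Cox7a1 read 1.95 to 7.27 CPM in abdomens and had 1 count over all thoraces, a ratio of 1367 with a 95% counting interval of 245 to 54010. Cyc1l, a second gene under a cytochrome c1 name, read 3.75 to 4.91 CPM in abdomens and 0.543 to 1.33 CPM in thoraces, a log2 change of 2.21 (SE 0.242).

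Muscle genes were lower in abdomens without exception among the 3 fixed here. Tropomyosins lie along the actin filament and gate contraction, and Zasp66 belongs to the Z-disc that anchors those filaments. Tm2 had 0.878, 0.945, 1.26, 1.75 and 2.19 CPM in abdomens, against 52.98, 288.1, 199.7, 211.7 and 73.48 CPM in thoraces, a log2 change of -6.85 (SE 0.560, adjusted p = 5.08e-07). Again thoraces 1 and 5 read lowest among thoraces, and all stood far above the abdomens. Zasp66 read 248 to 351.4 CPM in abdomens and 1318 to 1703 CPM in thoraces (log2 -2.26, SE 0.119). Tm1 read 1002 to 1147 CPM in abdomens and 2000 to 3496 CPM in thoraces (log2 -1.40, SE 0.159).

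Most neuronal genes were lower in abdomens as well. Nicotinic acetylcholine receptors are the main fast excitatory receptors of the insect central nervous system, and 10 of 12 subunits were lower in abdomens and 2 higher, with a median log2 change of -3.22. All 9 other channel and vesicle genes were lower, with a median of -2.69, against 35.7% lower among all genes tested. The subunit nAChRa12 had 1.86, 1.73, 1.64, 1.68 and 2.19 CPM in abdomens, against 24.59, 27.49, 31.01, 26.89 and 23.57 CPM in thoraces, a log2 change of -3.85 (SE 0.114, adjusted p = 2.18e-10). Slo, a calcium-activated potassium channel, read 27.77 to 38.28 CPM in abdomens and 355.8 to 456.7 CPM in thoraces (log2 -3.53, SE 0.114). Syt1, the calcium sensor of synaptic vesicle release, read 98.36 to 114.3 CPM in abdomens and 447.3 to 535.7 CPM in thoraces (log2 -2.26, SE 0.077). Replicates of each body part lay close together for these genes, unlike for the ATP synthase genes. Nsf, an ATPase that takes spent vesicle fusion complexes apart, and pHCl, a pH-sensitive chloride channel, fell by 2.09 and 2.69 on the log2 scale.

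A pair of subunits, nAChRa9 and nAChRb3, went the other way. The first, nAChRa9, had 6.18, 7.74, 2.50, 3.75 and 5.13 CPM in abdomens, against 0.0590, 0, 0.128, 0.0183 and 0.103 CPM in thoraces, a log2 change of 6.29 (SE 0.536, adjusted p = 7.28e-07). Its levels were low in both body parts, but no abdomen came near any thorax. The subunit nAChRb3 read 3.08 to 6.72 CPM in abdomens and 1.39 to 2.24 CPM in thoraces (log2 1.49, SE 0.242). Of 5 tested peptide hormone and receptor genes 2 were higher and 3 lower, against 38.9% and 35.7% of all genes tested. A pair of related receptors went opposite ways. Akhr, the receptor for adipokinetic hormone, which mobilises stores of the fat body, read 140.5 to 165.7 CPM in abdomens and 45.89 to 69.06 CPM in thoraces (log2 1.43, SE 0.107). Acpr, the receptor of the adipokinetic hormone/corazonin-related peptide, read 3.81 to 5.32 CPM in abdomens and 53.07 to 68.39 CPM in thoraces (log2 -3.85, SE 0.130). Neither receptor's libraries overlapped between the body parts.

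Of 6 tested genes that pattern the body axis, 2 were higher and 2 lower in abdomens, near the shares among all genes (38.9% and 35.7%), and the largest changes were those of Scr and Cad. Sex combs reduced (Scr) is the homeotic gene of the labial and first thoracic segments, and it had 1.11, 0.550, 1.11, 0.615 and 1.12 CPM in abdomens, against 55.57, 78.88, 59.64, 74.98 and 50.59 CPM in thoraces, a log2 change of -6.12 (SE 0.254, adjusted p = 1.98e-09). Caudal (Cad) specifies posterior segments and, in Drosophila, the hindgut. It had 14.96, 13.69, 16.31, 14.27 and 16.16 CPM in abdomens, against 0.103, 0.136, 0.463, 0.128 and 0.240 CPM in thoraces, a log2 change of 6.14 (SE 0.316, adjusted p = 1.02e-08). Abdomens and thoraces did not overlap for either gene, which matches the labels of all 10 libraries. The other lower one was the gap gene Kr, at 0.0354 to 0.391 CPM in abdomens and 0.814 to 1.84 CPM in thoraces. The other higher one was the pair-rule gene Eve, at 1.48 to 2.35 CPM in abdomens and 0.932 to 1.46 CPM in thoraces (log2 0.79, SE 0.195, adjusted p = 0.00326, and 0.0582 when all 40 abdomen and thorax libraries shared 1 fit).

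Cytochrome P450 enzymes oxidise hormones, hydrocarbons and foreign compounds. Of 43 P450 genes, 28 were higher and 10 lower in abdomens, with a median log2 change of 1.22, against 38.9% higher among all genes. Their summed level was 43070 to 59690 CPM in abdomens and 7924 to 13320 CPM in thoraces. In abdomens, but not in thoraces, most of that sum was CYP4G43. Enzymes of the CYP4G family form cuticular hydrocarbons in insect oenocytes by removing the carbonyl carbon of a fatty aldehyde. CYP4G43 had 41930, 42140, 32800, 36850 and 27930 CPM in abdomens, against 3356, 1316, 1567, 1784 and 1311 CPM in thoraces, a log2 change of 4.30 (SE 0.317, adjusted p = 2.08e-07). Thorax 1 was the highest thorax and still lay far below the lowest abdomen. CYP4G44 rose likewise, reading 1249 to 1705 CPM in abdomens and 37.47 to 133.9 CPM in thoraces (log2 4.48, SE 0.333).

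Another P450 gene, CYP6AQ4, read 6362 to 7901 CPM in abdomens and 1037 to 2119 CPM in thoraces (log2 2.33, SE 0.211). CYP314A1, known in Drosophila as shade, adds the last hydroxyl group in the making of the moulting hormone 20-hydroxyecdysone. It was picked after its values were seen, at 232.4, 233.1, 231, 214 and 196.2 CPM in abdomens, against 19.85, 18.82, 18.49, 20.81 and 23.25 CPM in thoraces, a log2 change of 3.47 (SE 0.0920, adjusted p = 1.31e-10). Abdomens and thoraces formed tight, well separated groups. Members of the CYP4AB group were among the exceptions. CYP4AB15 had 0, 0.254, 0.165, 0.160 and 0.206 CPM in abdomens, against 497.6, 119.6, 253.6, 164 and 160.5 CPM in thoraces, a log2 change of -10.50 (SE 0.626). CYP4AB18 had counts in abdomens 3 and 4 alone, at 0.0236 and 0.107 CPM, against 34.71 to 71.95 CPM in thoraces, a log2 change of -10.73 (SE 0.526) that reads -12.48 without abdomen 4. CYP4AB14 fell by 0.60 on the log2 scale (SE 0.185, adjusted p = 0.0119), with 1952 to 2375 CPM in abdomens and 2401 to 4384 CPM in thoraces. When all 40 abdomen and thorax libraries of the adults shared 1 fit, its adjusted p was 0.218.

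Glutathione transferases couple glutathione to reactive compounds, and 13 of 16 were higher and 0 lower in abdomens, with a median log2 change of 1.10. Over all genes tested, 38.9% were higher and 35.7% lower. The summed transferases read 3876 to 4988 CPM in abdomens and 1977 to 3046 CPM in thoraces. GstS2 had 236.9, 252.5, 226.8, 232.7 and 284.7 CPM in abdomens, against 12.55, 8.77, 7.09, 9.78 and 8.72 CPM in thoraces, a log2 change of 4.74 (SE 0.156, adjusted p = 3.99e-10). No other transferase described here moved as far. GstT2 rose by 1.32 (SE 0.196), the microsomal GST-mic1 by 1.03 (SE 0.163) and GstD1 by 0.55 (SE 0.147) on that scale. Carboxylesterases, which cleave ester bonds of lipids, hormones and insecticides, had 8 of 13 members higher and 2 lower, with a median of 0.99. CCE-A4 read 537.1 to 779.8 CPM in abdomens and 17.99 to 62.63 CPM in thoraces (log2 4.50, SE 0.367), and CCE-A5 read 396.5 to 479.2 CPM in abdomens and 49.44 to 62.67 CPM in thoraces (log2 2.97, SE 0.104).

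Serine proteases act in digestion and in extracellular cascades of immunity, and their homologs lack an intact catalytic site. Of 43 protease genes 35 passed the filter on low counts, with 20 higher, 8 lower and a median log2 change of 1.42. Over all genes tested, 38.9% were higher and 35.7% lower. The summed level of the proteases was 2724 to 4341 CPM in abdomens and 977 to 1300 CPM in thoraces. SP128 had 210.4, 280.7, 401.3, 340.3 and 338.1 CPM in abdomens, against 12.34, 6.97, 9.64, 6.49 and 11.58 CPM in thoraces (log2 5.08, SE 0.243). SP50 rose by a like amount (log2 5.04, SE 0.369). SP76 was the opposite case, at 0.647, 0.479, 0.389, 0.668 and 0.228 CPM in abdomens and 347.3, 423.1, 255.1, 391.5 and 246 CPM in thoraces, a log2 change of -9.43 (SE 0.340, adjusted p = 7.1e-10). All 3 genes kept the body parts apart. Of 8 homologs 5 were tested, with 3 higher and 1 lower. SPH103 read 2977 to 5155 CPM in abdomens and 42.9 to 82.64 CPM in thoraces (log2 6.31, SE 0.278), and SPH126 read 100.6 to 166.4 CPM in abdomens and 0.329 to 1.65 CPM in thoraces (log2 7.08, SE 0.356).

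The dehydrogenase gene LOC100113909 carries the RefSeq synonyms NV10127 and NV10129, names used for the dehydrogenases that shape the stereochemistry of the male Nasonia sex pheromone. It had 412.7, 433.7, 335.5, 346.5 and 412.5 CPM in abdomens, against 70.05, 126.5, 80.03, 124.7 and 66.68 CPM in thoraces, a log2 change of 2.07 (SE 0.204, adjusted p = 2.57e-06). Every abdomen was above every thorax. The related dehydrogenase gene SDR went the other way, at 0.0108 to 0.260 CPM in abdomens and 0.398 to 1.44 CPM in thoraces (log2 -2.47, SE 0.582). Of 4 fat-body genes, hexamerin storage proteins and a lipid droplet protein, 2 were higher and 1 lower, with a median log2 change of 0.24. Over all genes tested, 38.9% were higher and 35.7% lower. Lsd2, a coat protein of lipid droplets, read 1058 to 1805 CPM in abdomens and 455.5 to 730.3 CPM in thoraces (log2 1.46, SE 0.172). The storage protein gene Hex70b read 7.73 to 17.3 CPM in abdomens and 2.35 to 10.47 CPM in thoraces, which overlapped. Its log2 change of 1.00 (SE 0.389, adjusted p = 0.0361) was no longer called when abdomen 1 or 5, or thorax 1, 2 or 3, was left out, at log2 values of 0.98, 0.80, 1.01, 0.81 and 0.82. Hex109 was lower, at 1.68 to 2.58 CPM in abdomens and 3.07 to 8.51 CPM in thoraces (log2 -1.26, SE 0.273), and Hex83 did not pass the test (log2 -0.52, adjusted p = 0.241). All 4 ribosomal protein genes with such symbols were higher in abdomens, with a median log2 change of 1.56. Rpl6 read 456 to 533 CPM in abdomens and 147.8 to 220.9 CPM in thoraces (log2 1.52, SE 0.120), and Rpl7a rose by 1.67 (SE 0.113).

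Cuticle protein genes leaned the other way by count but not by summed level. Of 48, 28 were tested, with 7 higher, 13 lower and a median log2 change of -0.49. Among all genes 38.9% were higher and 35.7% lower. The summed level was 3779 to 4525 CPM in abdomens and 2515 to 4748 CPM in thoraces, which overlapped. CPR18, of the chitin-binding class, was higher, at 218.1 to 291.1 CPM in abdomens and 2.64 to 17.23 CPM in thoraces (log2 4.83, SE 0.434). The yellow and royal jelly-like family had 3 of 13 tested members higher and 5 lower, with a median of -0.49 that reads 0.45 with 5 higher when thorax 5 is left out. Y-x1c, a yellow-family gene, had 485.5, 564.3, 445.3, 731.7 and 780 CPM in abdomens, against 8.77, 2.17, 3.48, 3.65 and 4.45 CPM in thoraces, a log2 change of 7.07 (SE 0.402, adjusted p = 2.37e-08). Mrjpl5 read 408 to 510.1 CPM in abdomens and 103.4 to 323.6 CPM in thoraces (log2 1.42, SE 0.285). In both genes abdomens stood above thoraces, and for Mrjpl5 thorax 5 came nearest.

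The 3 defensin genes of the immune list varied widely between thoraces. Defensins are small antimicrobial peptides released into the haemolymph on infection or wounding. Def1-1 had 6.01, 5.87, 4.38, 6.12 and 14.01 CPM in abdomens, against 4.11, 632.9, 1701, 645.1 and 3119 CPM in thoraces, a log2 change of -7.36 (SE 1.27, adjusted p = 0.000254) that reads -6.66 without thorax 5. Thorax 1 was as low as the abdomens, so the body parts overlapped, while thorax 5 was the highest. Def1-2 had 187.2, 191.3, 217.2, 260.7 and 367.2 CPM in abdomens, against 96.67, 1159, 2932, 1381 and 5373 CPM in thoraces, with thorax 1 the lowest library of all and thorax 5 the highest. Its log2 change was -3.13 (SE 0.751), or -2.49 without thorax 5. LOC100121630, whose RefSeq synonym is Def2-3, fell by 3.18 on the log2 scale (SE 0.836), or to a log2 change of -2.46 without thorax 3. Over the whole immune list 2 of 8 were higher and 4 lower, against 38.9% and 35.7% of all genes tested. The summed level was 972 to 1297 CPM in abdomens and 711 to 9832 CPM in thoraces. The prophenoloxidase ppo1, which starts melanin formation at wounds, was higher in abdomens (log2 2.03, SE 0.364), at 18.54 to 42.25 CPM in abdomens and 2.91 to 12.59 CPM in thoraces. The recognition protein gene Gnbp1-2 was lower (log2 -0.76, SE 0.193). Imd, an adaptor of the antibacterial pathway that bears its name, was higher, at 28.25 to 33.41 CPM in abdomens and 16.1 to 25.44 CPM in thoraces (log2 0.54, SE 0.120), and a second prophenoloxidase, ppo3, did not pass the test (log2 0.30, adjusted p = 0.406). For serpin5, a protease inhibitor gene, the adjusted p was 0.522 (log2 0.18), but 0.000591 (log2 0.52) without thorax 5. The part of wounding by injection in these values was not tested.

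The largest changes by fold were of genes read in abdomens and at or near 0 in thoraces. LOC100119680 had 2173, 2194, 1950, 1897 and 2089 CPM in abdomens and no count in any thorax, which makes it at least 202100-fold higher against 3 counts over the 5 thoraces. LOC100680306 was likewise at least 193700-fold higher, LOC100679870 at least 185600-fold and LOC100117710 at least 159100-fold. LOC100679096, LOC103316378 and LOC107980735 were also without a count in thoraces, and were at least 13470-fold, 6347-fold and 5761-fold higher in abdomens. The files and the RefSeq table give these genes no functional name.

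LOC100678263 had 1 count over all thoraces and read 339.5 to 412.2 CPM in abdomens, a ratio of 110600 with a 95% counting interval of 19850 to 4368000. LOC100422735, also with 1 thorax count, had a ratio of 82200 (14750 to 3247000), and LOC103316219, with 2, of 78300 (21680 to 646600). These intervals cover counting error only. LOC100117783 read 2151 to 2423 CPM in abdomens and 0 to 0.0388 CPM in thoraces (log2 16.90, SE 0.341). LOC100122658 read 622.5 to 695.6 CPM in abdomens and 0 to 0.0685 CPM in thoraces (log2 14.87, SE 0.338, and 15.98 without thorax 5). Abdomens varied little for these genes. That no thorax came near them follows from how they were picked, by large changes without overlapping libraries.

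**Figure D3:**
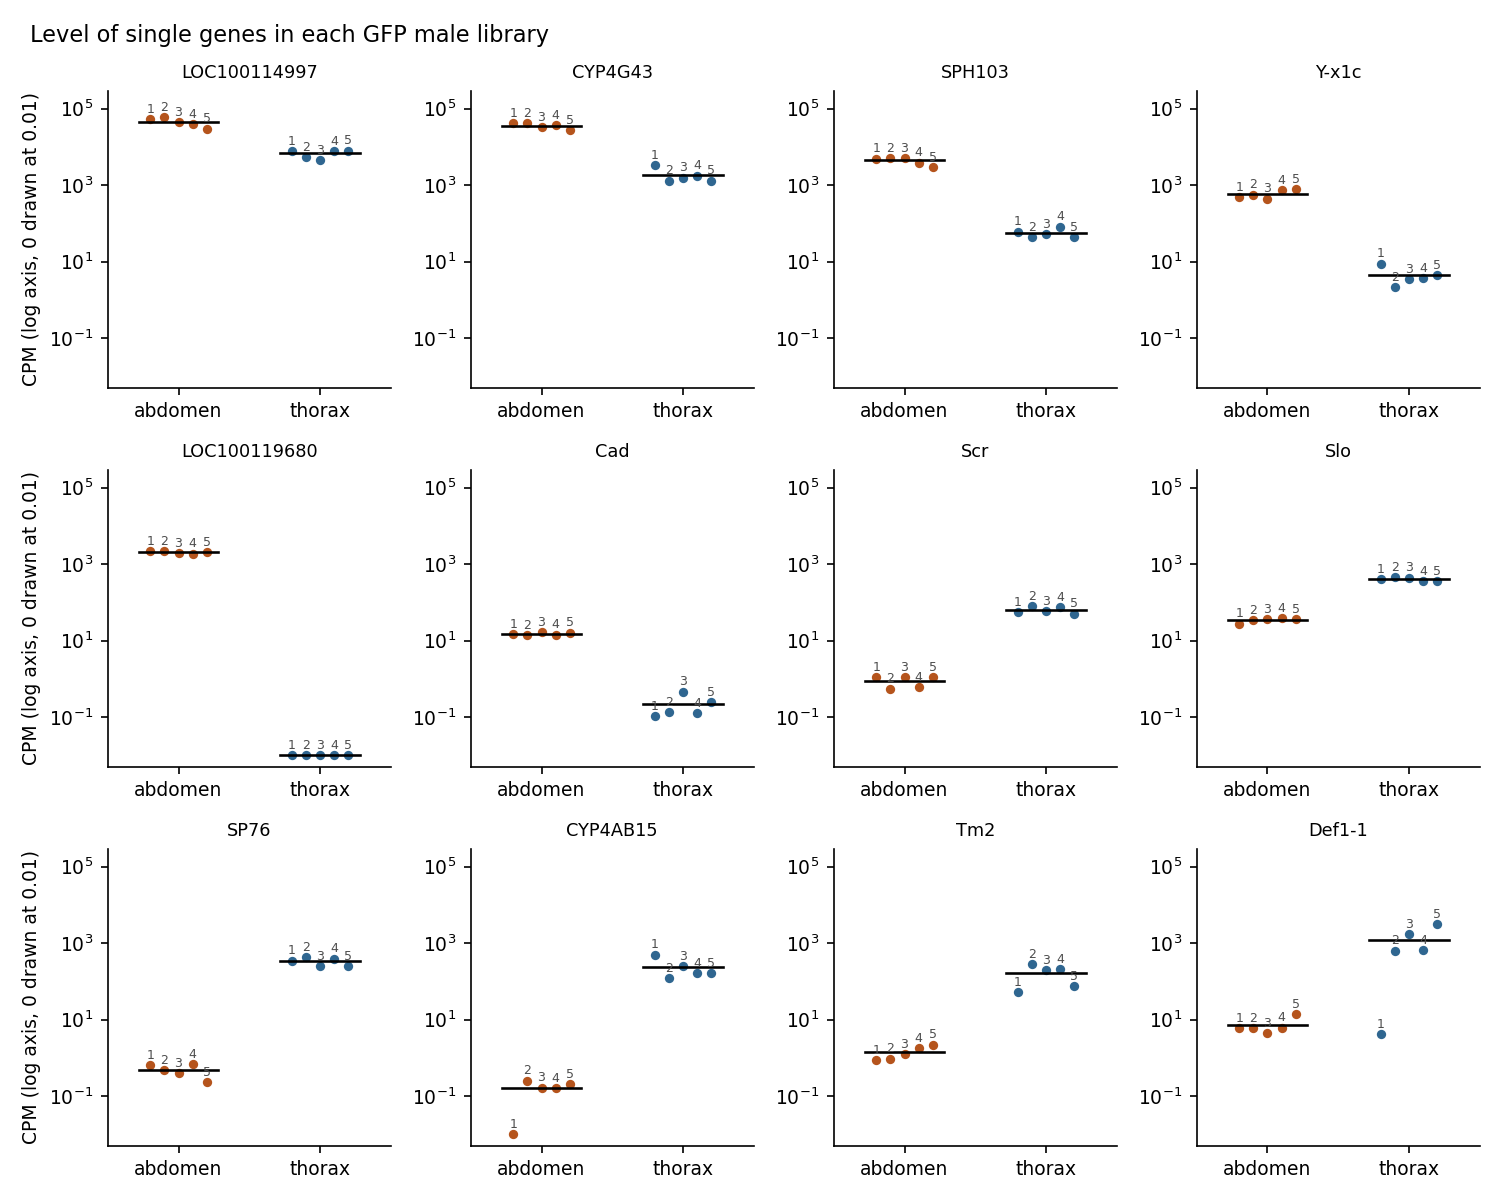
CPM on a log axis in each library for single genes, abdomens left of thoraces in each panel, 1 numbered point per library and a line at the mean. Libraries at 0 are drawn at the foot of the axis. Scr and Cad lie on opposite sides, LOC100119680 was without a count in all thoraces, and Def1-1 overlapped through thorax 1.

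Some of these genes follow each other in the RefSeq gene order when only tested protein-coding genes are counted. Other genes may lie between them, and this look was chosen after the values were seen. LOC100679935, LOC100119680, LOC100679870 and LOC100679833 form a run of 4 neighbours that were all at least 16-fold higher in abdomens, summing to 4253 CPM in abdomens and 0.0345 CPM in thoraces. CYP4G44 lies in another run of 4, with LOC100115191, LOC100115155 and LOC100115121, summing to 2154 CPM in abdomens and 72.14 CPM in thoraces. The run of LOC100118738, LOC100679807, LOC103316185 and LOC100678084 was lower in abdomens, at 3.91 CPM summed against 813.7 CPM in thoraces. The odorant receptor genes Or20, Or19, Or17, Or16, Or15 and Or14 made a run of 6 lower ones, at 0.0792 CPM summed in abdomens and 9.55 CPM in thoraces.

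Of the 266 genes at least 16-fold lower in abdomens, 7 had no count there. Those described next reached 10 CPM or more in thoraces and had some of the largest changes among such genes. LOC103317091 had 0.170, 0.183, 0.248, 0.240 and 0.228 CPM in abdomens, against 183.6, 427.6, 357.7, 347.1 and 162 CPM in thoraces, a log2 change of -10.39 (SE 0.387, adjusted p = 8.86e-10). LOC103317436, LOC100115126, LOC100114502 and LOC100120914 changed alike, by log2 values of -10.12, -10.88, -10.44 and -9.62. Thoraces 1 and 5 were the lowest thoraces in each of these 5 genes, as in the ATP synthase genes. LOC100124007 read 0.437 to 1.58 CPM in abdomens and 352.9 to 4176 CPM in thoraces (log2 -10.69, SE 0.870, and -9.95 without thorax 2). LOC100679631 read 0.678 to 3.24 CPM in abdomens and 941.4 to 1314 CPM in thoraces (log2 -9.71, SE 0.516, and -10.31 without abdomen 2).

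A pair of unnamed genes varied between thoraces as widely as the defensins. LOC100119464 had 0.277, 0.0705, 0.566, 0.508 and 0.477 CPM in abdomens, against 1.59, 41.19, 632.5, 58.03 and 604.6 CPM in thoraces, a log2 change of -9.39 (SE 1.54) that reads -8.79 without thorax 3. LOC100679420 had 0, 0, 0, 0.0534 and 0.0543 CPM in abdomens, against 2.42, 1.96, 109.2, 11.73 and 31.52 CPM in thoraces, a log2 change of -10.27 (SE 1.59) that reads -8.87 without thorax 3 and -10.95 without abdomen 5. Thoraces 3 and 5 were high and thorax 1 among the low ones for both. LOC103315799 differed from all of these, at 1.96, 78.2, 2.47, 3.02 and 2.53 CPM in abdomens and 7729, 4883, 4710, 5894 and 5780 CPM in thoraces. Its log2 change of -8.34 (SE 1.35) reads -11.13 without abdomen 2, which stood far above the other abdomens. In thoraces of dsx-labelled males the same gene averaged 4.11 ± 2.07 CPM, and in female thoraces 0.5997 ± 0.314 CPM (SD, n = 5 each), but its interactions with dsx labelling and sex were not called (adjusted p = 0.101 and 0.238).

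Measured by the difference in mean CPM, a scale that is not corrected for gene length, LOC100114997 led the abdomen. It had 53940, 60250, 44700, 40000 and 30240 CPM in abdomens, against 7932, 5510, 4566, 7768 and 7974 CPM in thoraces, a log2 change of 2.79 (SE 0.261, adjusted p = 1.7e-06), and took 2.95 to 5.48% of all counts of an abdomen. Behind CYP4G43 followed LOC100118781, at 4323 to 11220 CPM in abdomens and 90.3 to 277.5 CPM in thoraces (log2 5.46, SE 0.408), and LOC100119490, at 2761 to 10620 CPM in abdomens and 29.31 to 239.3 CPM in thoraces (log2 5.67, SE 0.583). LOC103315960 read 2821 to 7915 CPM in abdomens and 43.13 to 255.5 CPM in thoraces (log2 5.74, SE 0.606, and 6.51 without thorax 1). For these last 3 genes abdomen 1 was the lowest abdomen and abdomen 5 the highest.

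On the same scale LOC100113791 led the thorax, with 2167, 2234, 2240, 2215 and 1973 CPM in abdomens, against 22660, 41620, 33230, 39490 and 20110 CPM in thoraces, a log2 change of -3.84 (SE 0.248, adjusted p = 6.77e-08). It took 1.76 to 3.17% of all counts of a thorax. LOC100117058, LOC100114388 and LOC100115460 fell by 3.16, 3.08 and 3.60 on the log2 scale, with thoraces 1 and 5 again the lowest thoraces. LOC100123633, LOC116418257 and LOC107981453, with smaller log2 changes of -2.10, -1.13 and -1.41, were abundant in both parts, at 3815 to 4417, 7187 to 9174 and 4294 to 5784 CPM in abdomens, against 14390 to 21890, 14260 to 21960 and 10790 to 16050 CPM in thoraces.

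Chemoreceptor genes, best known from antennae and mouthparts, were mostly too low to test. Of 214 odorant receptors 79 were tested, with 22 higher, 31 lower and a median log2 change of 0.02, whose sign changed with the scaling. The shares over all genes tested were 38.9% higher and 35.7% lower. Or158 had 3.48, 4.68, 5.06, 4.01 and 2.29 CPM in abdomens, against 20.21, 21.01, 25.49, 18.33 and 25.1 CPM in thoraces, a log2 change of -2.47 (SE 0.199). Or275 fell by 3.48 (SE 0.312). Or87 read 4.58 to 5.92 CPM in abdomens and 0.591 to 1.09 CPM in thoraces (log2 2.75, SE 0.184). Or88 read 0.601 to 0.885 CPM in abdomens and had no count in thoraces, which makes it at least 71.8-fold higher against 3 counts over the 5 thoraces. Of 46 gustatory receptors 10 were tested, with 3 higher and 3 lower. Gr5 read 17.52 to 23.73 CPM in abdomens and 9.02 to 12.84 CPM in thoraces (log2 1.01, SE 0.116), and Gr3 read 0.183 to 0.493 CPM in abdomens and 1.30 to 3.42 CPM in thoraces (log2 -3.01, SE 0.348).

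Genes of cell division and meiosis, which germ cells of testes and ovaries use, were called in both directions in males. Their shares lay near or below those among all genes, 38.9% higher and 35.7% lower. Haploid males make sperm without a reductional division. Of 12 cell division genes 4 were higher and 4 lower, with a median log2 change of 0.36, and 1 was lower without abdomen 2, 2 without abdomen 3 and 1 when libraries were scaled by total counts alone. The G1 cyclin cycD had 17.41, 20.06, 16.17, 15.71 and 17.51 CPM in abdomens, against 4.91, 4.83, 4.46, 4.50 and 4.92 CPM in thoraces, a log2 change of 1.90 (SE 0.0870, adjusted p = 4.22e-09). Smc2, a condensin subunit that compacts chromosomes, read 11.59 to 13.92 CPM in abdomens and 14.18 to 23.59 CPM in thoraces, a log2 change of -0.38 (SE 0.140, adjusted p = 0.0274). Its adjusted p was 0.0706, 0.0558 and 0.0630, at log2 values of -0.33, -0.37 and -0.34, without abdomen 2, 3 or 5, and 0.218 (log2 -0.24) with total counts alone. Of 14 tested meiotic recombination and repair genes 3 were higher and 2 lower, with a median of -0.02 that reads 0.15 with total counts alone. Msh4, which acts in meiotic crossing over, had 0, 0, 0.0354, 0.0267 and 0 CPM in abdomens, against 0.310, 1.32, 1.198, 0.987 and 0.514 CPM in thoraces (log2 -5.86, SE 0.749, and -6.65 without abdomen 3). LOC100286829, with the synonym Topi, a testis meiotic-arrest gene in Drosophila, fell by 0.35 (SE 0.082, and 0.19 with an adjusted p of 0.100 when scaled by total counts). The germ plasm gene oskar did not pass the test (log2 -0.73, adjusted p = 0.0573; 0.0392 at a log2 change of -0.88 without abdomen 5 and 0.0401 at -0.84 without thorax 4), with overlapping libraries at 0.385 to 1.33 CPM in abdomens and 0.987 to 2.45 CPM in thoraces.

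The sex-determination genes differed by less than 2-fold between the body parts. Dsx had 497.9, 517, 455.8, 507.3 and 468.9 CPM in abdomens, against 424.4, 443.9, 361, 415.1 and 374.4 CPM in thoraces, a log2 change of 0.30 (SE 0.087, adjusted p = 0.00878). Abdomens stood above thoraces by a small margin. Transformer (Tra), the splicing regulator of Dsx, read 20.87 to 25.28 CPM in abdomens and 28.83 to 44.07 CPM in thoraces (log2 -0.57, SE 0.110). Fruitless (Fru), a transcription factor of male courtship circuits in Drosophila, did not pass the test (log2 0.09, adjusted p = 0.303).

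The comparison of abdomen with thorax differed between the sexes for most genes. The interaction, the male log2 change minus the female one, was called for 9150 of 12433 genes (73.6%), positive for 4290 (34.5%) and negative for 4860 (39.1%). The females' own contrast was called for 10702 genes (86.1%). Of the 619 genes at least 16-fold higher in male abdomens, 309 were also higher in female abdomens, 123 of them by at least 16-fold, 89 were lower there and 221 were not called. Among all genes tested in females 45.8% were higher in abdomens, 6.70% by at least 16-fold, and 40.3% were lower. The median log2 change in females was 1.57 for the 619 genes and 0.11 for all genes tested in females. Of the 266 genes at least 16-fold lower in male abdomens, 226 were also lower in females and 17 higher, with a median of -4.24. Within those 619 genes, 320 averaged under 1 CPM in male thoraces, male heads, female abdomens and female thoraces alike. The same held for 1015 of all 11697 genes tested. The 619 genes were chosen partly by their low male thorax values, and 489 of them averaged under 1 CPM there. Their larger share therefore follows in part from the choice and is no test of specificity. Together the 619 genes took 14.45 ± 0.611% of the counts of male abdomens and 0.386 ± 0.187% of those of male thoraces (SD, n = 5 each). They were chosen by this contrast in the same libraries, so the gap between these shares follows from the choice.

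**Figure D4:**
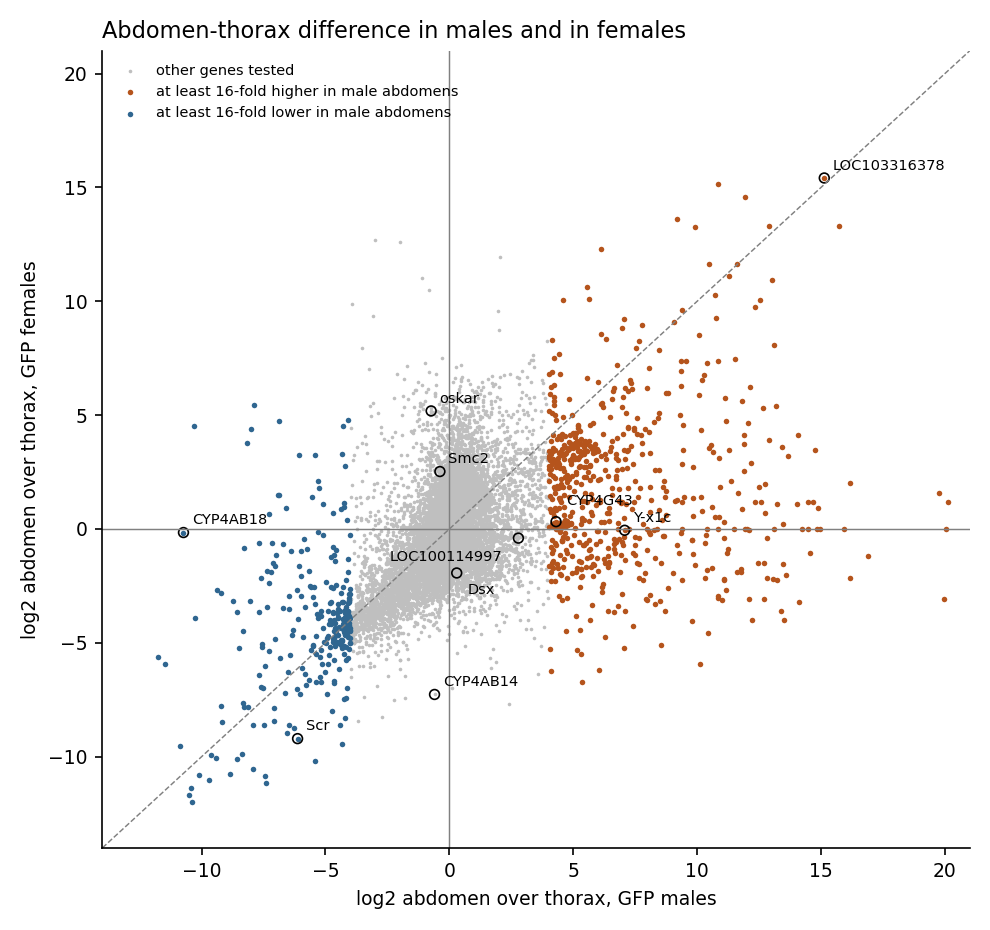
Log2 change of abdomen over thorax in males (horizontal axis) against that in females (vertical axis), 1 point per gene tested in both, with genes described in the text marked. The log2 values of genes without counts in 1 body part depend on the prior count, and LOC100114997 and CYP4G43 lie far to the right of 0 in males and near 0 in females.

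LOC100114997 averaged 9.64 ± 2.22 CPM in female abdomens and 13.6 ± 3.57 CPM in female thoraces (SD, n = 5 each), so its abundance in both male body parts was not seen in females, and its interaction was 3.21 (SE 0.334, adjusted p = 4.38e-08). Of 43 P450 genes, 31 had a positive and 5 a negative interaction, with a median of 2.04, against 34.5% positive and a median of -0.05 over all genes. In females, 12 P450 genes were higher and 24 lower in abdomens, against 45.8% higher and 40.3% lower over all genes tested. CYP4G43 averaged 2853 ± 680 CPM in female abdomens and 2436 ± 852 CPM in female thoraces, with an interaction of 4.00 (adjusted p = 2.26e-08). CYP6AQ4 averaged 246.8 ± 38.3 CPM in female abdomens and 1751 ± 530 CPM in female thoraces, so the body parts were in the opposite order to males (interaction 5.08, adjusted p = 1.73e-11). The female values of CYP4AB14 were 0.759 ± 0.381 CPM in abdomens and 123.5 ± 60.6 CPM in thoraces (interaction 6.69, adjusted p = 5.99e-10). CYP4AB18 overlapped between the female parts, at 37.56 ± 3.58 CPM in abdomens and 44.45 ± 5.95 CPM in thoraces (interaction -10.56, adjusted p = 4.05e-13, and -12.33 without male abdomen 4). Y-x1c averaged 57.71 ± 19.7 CPM in female abdomens and 64.33 ± 40.9 CPM in female thoraces (interaction 7.15, adjusted p = 8.7e-10).

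Of 16 glutathione transferases 7 were higher and 8 lower in female abdomens, and of 13 carboxylesterases 3 were higher and 7 lower. Over all genes tested in females, 45.8% were higher and 40.3% lower. Of the respiratory chain, 30 of 31 complex I genes were lower in female abdomens too, with a median of -1.36. The interaction was called for 2 positive and 3 negative members, against 34.5% positive and 39.1% negative over all genes. Cell division genes stood apart by sex, with 11 of 12 higher in female abdomens (median log2 3.74) and an interaction that was negative for all 12. Among the 15 meiotic and repair genes tested in females, 14 were higher in abdomens and 13 had a negative interaction. Smc2 averaged 76.11 ± 5.26 CPM in female abdomens and 14.08 ± 1.08 CPM in female thoraces (interaction -2.89, adjusted p = 9.54e-12). Oskar averaged 393.1 ± 22.8 CPM in female abdomens and 11.53 ± 14.3 CPM in female thoraces (interaction -5.89, adjusted p = 1.88e-06, and -7.02 without female thorax 2). Dsx was lower in abdomens in females, at 132.7 ± 17.7 CPM in abdomens and 536.5 ± 75 CPM in thoraces (interaction 2.25, adjusted p = 4.61e-11). Scr was more depleted in female abdomens, at 0.0973 ± 0.0926 CPM against 63 ± 11.3 CPM in female thoraces (interaction 3.10, adjusted p = 6.56e-06, and 3.78 without female abdomen 1). LOC103316378 was shared by the sexes, at 72.5 ± 11.3 CPM in female abdomens and no count in female thoraces.

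Males injected with dsRNA against Dsx kept most of the contrast between the body parts. Their Dsx level was 588.4 ± 34.4 CPM in abdomens and 370.9 ± 111 CPM in thoraces, against 489.4 ± 26 and 403.8 ± 34.8 CPM in abdomens and thoraces of GFP males (SD, n = 5 each), so it was not lower in the abdomens labelled as dsx RNAi, and these libraries are called dsx-labelled. Of the 619 genes at least 16-fold higher in GFP male abdomens, 615 were also higher in abdomens of dsx-labelled males and 0 lower, against 37.9% higher and 33.6% lower among all genes. Among the 266 opposite ones, 238 were also lower and 4 higher. The interaction, the dsx-labelled log2 change minus the GFP one, was called for 1590 of 12185 genes (13.0%), positive for 737 (6.05%) and negative for 853 (7.00%), and for 2620 genes without dsx-labelled thorax 5. Dsx itself did not pass the interaction test (log2 0.38, adjusted p = 0.206), but did without dsx-labelled thorax 5 (log2 0.56, adjusted p = 0.00958).

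LOC100679177 and LOC100121918 lost most of their abdominal level in dsx-labelled males. LOC100679177 read 6.39 to 13.72 CPM in abdomens and 0.643 to 2.10 CPM in thoraces of dsx-labelled males, against 3285 to 4630 CPM in abdomens and 2.00 to 7.38 CPM in thoraces of GFP males (interaction -6.64, adjusted p = 3.91e-08). LOC100121918 read 5.30 to 7.70 CPM in abdomens and 0 to 0.285 CPM in thoraces of dsx-labelled males, against 181.9 to 289.9 CPM in abdomens and 0 to 0.177 CPM in thoraces of GFP males (interaction -5.99, adjusted p = 1.09e-05). LOC107980898 went the other way through its thoracic level, at 0.0565 to 0.389 CPM in abdomens and no count in thoraces of dsx-labelled males, against 0.0118 to 0.423 CPM in abdomens and 14.69 to 33.78 CPM in thoraces of GFP males (adjusted p = 2.11e-05). LOC100114997 averaged 8049 ± 3020 CPM in abdomens and 531 ± 146 CPM in thoraces of dsx-labelled males.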

How the data were processed

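RNA was sequenced as 150 bp read pairs on a NovaSeq from NEBNext Ultra libraries, per the labels' protocols. The deposited values are raw read counts per gene and library, with HISAT2 2.0.5 and HTSeq 0.6.1 named in the submitters' processing notes. The sources used here do not state their roles, the genome build or the strand setting. Groups came from sample labels. Of 15471 genes, 376 had no count in any library. Library sizes were TMM-scaled, low genes were filtered with filterByExpr (minimum count 10), and abdomen over thorax was tested on the 10 libraries with edgeR 4.0.16 in R 4.3.3 (quasi-likelihood, Benjamini-Hochberg adjusted p below 0.05, prior count 0.125). The sex interaction was fitted on 20 GFP libraries and the dsx interaction on 20 male libraries, each as abdomen over thorax in 1 group minus that in the other. CPM are on 1 TMM scale over the 60 adult libraries. With 5 libraries of at least 66619799 counts in each group, 11127 genes were simulated for the comparison of abdomen with thorax. A small share of them, with enough expected counts, was changed. Among the changed genes, 2-fold changes were recovered in 78% and 1.5-fold changes in 32%. In the data far more genes differed (74.6% of those tested), so these rates may not carry over. Replicate pairs differed by more than counting noise in every case, so no library was counted as a copy of another.

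Symbols were matched to the RefSeq table of assembly Nvit_psr_1.1 (14799 exact matches), used only for synonyms, overlaps and gene neighbours. That table has no gene descriptions, so lists planned by description were replaced by lists of symbols, drawn from 882 genes with a name of their own. Members and lists were chosen with earlier results of these data known. Named genes were, per direction, the 12 with the largest log2 change without overlapping libraries and with 10 CPM or more, the 8 with the largest difference in CPM, up to 4 called members per list with the highest CPM plus the strongest exception, all members of lists of up to 8, and the leading interaction genes. The text gives fewer than this rule allows. A fold against a group without counts is a lower bound against 3 counts over 5 libraries. Alternatives were other scalings, no filter, DESeq2 1.42.0, wider sets of libraries, a replicate block and leaving out each library.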

Additional observations from a re-analysis of the deposited data

Results flagged for a closer look

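Single libraries stood apart from the other 4 of their group in 21 of 240 groups of 5 for the genes named. The 240 include groups without any count, such as thoraces for LOC100119680, which could not be flagged. Of the 21 flagged groups, 7 were in abdomens and 14 in thoraces. The cut-off flags about 1 in 20 groups of normally distributed values, which CPM with zeros need not be, so no excess is read from this. Thorax 1 accounted for 7 of the 21 and thorax 5 for 5. Thorax 1 was far above the other thoraces for CYP4G43 (3356 CPM), CCE-A4 (62.63 CPM), ppo1 (12.59 CPM), Gnbp1-2 (85.19 CPM), Smc2 (23.59 CPM) and LOC103315960 (255.5 CPM), and below them for Or275 (3.037 CPM). Thorax 5 was far above the others for serpin5 (1226 CPM) and Eve (1.456 CPM), and was the one thorax with a count of Cox7a1 and of LOC100422735 (0.01713 CPM each) and the highest for LOC100122658 (0.06853 CPM). Thorax 3 stood apart for LOC100679420 (109.2 CPM) and through the single count of LOC100678263 (0.01597 CPM). Among abdomens, abdomen 5 was high for Sdha (167.9 CPM) and Def1-1 (14.01 CPM) and low for LOC100113791 (1973 CPM). Abdomen 2 was high for LOC103315799 (78.2 CPM) and LOC100679631 (3.243 CPM), and abdomen 4 for LOC100120914 (1.43 CPM) and CYP4AB18 (0.1069 CPM).

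The change of abdomen over thorax differed between males and females, by the interaction test, for 9150 genes, among them Scr (3.10, log2), CYP4G43 (4.00), CYP6AQ4 (5.08), CYP4AB14 (6.69), CYP4AB18 (-10.56), Y-x1c (7.15), Smc2 (-2.89), oskar (-5.89), Dsx (2.25) and LOC100114997 (3.21). It differed between dsx-labelled and GFP males for 1590 genes, among them LOC100679177 (-6.64), LOC100121918 (-5.99) and LOC107980898 (13.54, a value that depends on the prior count since dsx-labelled thoraces had no count).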

How the results depend on the processing

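No alternative reversed the direction of any called gene described here. Of 28 list medians, 7 changed sign under some alternative, among them those of the yellow family without thorax 5 (0.45, against -0.49) and of serine protease homologs without the filter on low counts (-0.16, against 1.39). Genes called for abdomen over thorax numbered 8433 to 8877 with 1 library left out and 8467 to 9516 under the other settings, against 8722; those past a 2-fold change by edgeR's glmTreat numbered 3777, against 4709 by the plain test. With 1 library left out, dsx interaction genes ranged from 1253 to 2620 (main value 1590), positive ones from 576 to 1252 (737), negative ones from 659 to 1368 (853), positive ones past 2-fold from 282 to 539 (322) and negative ones past 2-fold from 210 to 347 (244). The highest of these counts of all, positive and negative genes came without dsx-labelled thorax 5, and 1316 negative ones were called without GFP thorax 1. DESeq2 called 1111 positive ones; the cause was not tested. Scaling by total counts alone moved the median log2 change of all genes from 0.04 to 0.19, with 5068 higher and 3468 lower genes. Deviations of same-numbered abdomens and thoraces correlated at 0.144, -0.031, 0.0304, -0.0984 and 0.0467, and not every library correlated best with its own number. Body parts this unlike need not deviate together, so these values do not settle whether a replicate number marks the same wasps. With the replicate block 8467 genes were called for abdomen over thorax, 8896 for the sex interaction and 1253 for the dsx interaction. Of list values, 58 moved and 1454 did not. DESeq2 and the fit with male heads called oskar between the body parts (adjusted p = 0.0333 and 0.0329), and the replicate block put it just under the threshold. Levels of a few counts per library, and genes under the filter, are limited by depth.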
